A study of Rattus norvegicus with 8 samples.

Results

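The insulin-like growth factor (IGF) system of the rat soleus was followed through a short loss of weight bearing and a return to walking. It was taken as 8 genes: the ligands Igf1 and Igf2, the receptors Igf1r and Igf2r, and the binding proteins Igfbp3, Igfbp4, Igfbp5 and Igfbp6. Every probe set (a group of short probes read as 1 value) whose only annotated symbol was one of these was included and kept apart. That gave 20 of the 8740 probe sets, covering 7 of the 4736 genes named on the array, since no included probe set named Igfbp4, which is not analysed here. Of the 20, 14 passed the filter on dim signal and were tested.

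The soleus is a slow postural muscle of the lower hindlimb. All rats were female. Control rats (3 arrays) spent 12 h in normal cage activity; unloaded rats (3 arrays) had 12 h without weight on the hindlimbs; a walked group (2 arrays) had 12 h of unloading followed by 2 h of treadmill walking, given as 30 min bouts alternating with 30 min in the cage over 4 h. The labels used here name no genotype, strain, age or added agent. Each array carried RNA pooled from the soleus of 8 to 10 rats, so the spread between arrays is a spread between pools and not between rats, and in whole muscle fewer cells of a type and less RNA per cell cannot be told apart.

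IGF-1 and IGF-2 are secreted peptides that promote growth and differentiation of muscle, and both signal through the IGF-1 receptor, a tyrosine kinase that recruits insulin receptor substrates and activates the PI3 kinase and Akt pathway and the Ras and MAP kinase pathway. The IGF-2 receptor, which is also the cation-independent mannose 6-phosphate receptor, carries IGF-2 and lysosomal enzymes into the cell and ends the action of IGF-2. The binding proteins hold the ligands outside the cell and can either limit or prolong their action. In muscle the local supply of IGF-1 is known to respond to mechanical load.

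The changes that passed the test lay in the binding proteins. Igfbp6, which binds IGF-2 in preference to IGF-1, was lower in unloaded than in control soleus (log2 fold change -0.54 ± 0.14 SE, limma adjusted p = 0.0416) and lower in walked than in control soleus (-0.84 ± 0.16, adjusted p = 0.00986). Igfbp5, a binding protein known from developing and regenerating muscle, was lower after walking than after unloading (-1.91 ± 0.35, adjusted p = 0.00862) and than in control (-1.42 ± 0.35, adjusted p = 0.0319) on 1 of its 2 tested probe sets. No probe set of the ligands or receptors passed the adjusted threshold of 0.05 in any of the 3 comparisons.

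In unloaded against control soleus, 0 of the 14 tested probe sets rose and 1 fell, against a background over all 5244 tested probe sets of 3.99% higher and 3.32% lower. In walked against unloaded soleus, 0 rose and 1 fell, against 2.73% and 1.47%. In walked against control soleus, 0 rose and 2 fell, against 4.46% and 4.61%. At an unadjusted p under 0.05, limma gave 4 of the 14 in each comparison, beside 21.5%, 17.4% and 24.7% of all tested probe sets. Of the 14, 3 would fall under the filter on dim signal with 1 group left out of the mean (Igf1r L29232_at, Igfbp3 rc_AI009405_s_at and Igfbp5 rc_AI029920_s_at), so these counts are a description and support nothing. The median log2 fold change of the 14 was 0.11, -0.14 and -0.20 in these 3 comparisons, beside -0.08, -0.05 and -0.11 over all tested probe sets. The arrays of the 2 groups did not overlap for 4, 7 and 6 of the 14, which is 28.6%, 50% and 42.9%, against a background of 26.4%, 35.3% and 43.0%. The share without overlap in walked against control was thus at the background, and the called counts rest on 1 or 2 probe sets. The comparisons share arrays, so their counts are not independent of each other.

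**Figure D1:**
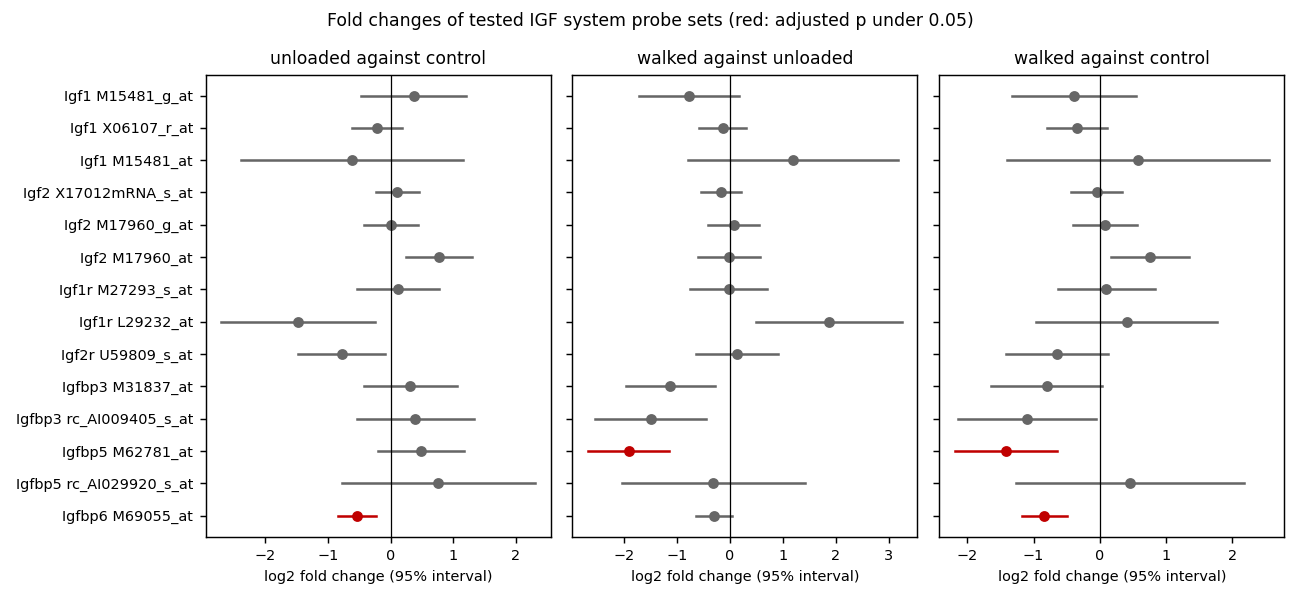
Log2 fold change with its 95% confidence interval (horizontal axis) of each of the 14 tested IGF system probe sets in the 3 comparisons, with red marking an adjusted p under 0.05. Red points are Igfbp6 in both comparisons with control and 1 probe set of Igfbp5 in both comparisons of walked soleus, and all 4 lie below 0.

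Values of signal below are MAS5 signals on a linear scale, each array scaled to the same trimmed mean; they compare arrays for 1 probe set and do not rank genes or probe sets against each other. Among the controls, pool 3 was farthest out on the first principal component of all tested probe sets (-30.0 against -14.2 and -16.3), and results that rest on it are given without it as well. All 7 measured markers of slow fibres, among them the slow myosin Myh7 and the slow troponin Tnni1, passed the filter, with a summed signal of 21182 to 31549 over the 8 arrays.

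Igf1 had 3 tested probe sets, which did not move together. Probe set M15481_g_at read 161, 156 and 54.5 in the control pools, 118, 142 and 176 in the unloaded pools and 64.2 and 111 in the walked pools. The 2 walked pools lay below all 3 unloaded pools, while the control pools spanned both groups because control pool 3 was the lowest of the 8 arrays. The fold changes were 0.37 ± 0.38 in unloaded against control (95% interval -0.47 to 1.21), -0.77 ± 0.43 between walked and unloaded (-1.71 to 0.17) and -0.40 ± 0.43 between walked and control (-1.33 to 0.54), none of them called. Without control pool 3 the first was -0.14 and the last -0.91 (adjusted p = 0.07997).

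The second Igf1 probe set, M15481_at, read 81.9, 74.8 and 7.0 in control, 19.5, 16.6 and 36.8 in unloaded and 37.0 and 73.8 in walked soleus. Control pool 3 was again the lowest of all arrays, at less than any unloaded pool, and the other control pools were the highest. The fold change in unloaded against control was -0.62 ± 0.80 (95% interval -2.38 to 1.15, adjusted p = 0.723). Without control pool 3 it was -1.78 with an adjusted p of 0.0312, so that whether this probe set is called lower in unloaded soleus rests on 1 array. Over the alternatives that leave out 1 array, its adjusted p ran from 0.0312 to 0.999. In walked against unloaded soleus it was 1.20 ± 0.90, opposite in sign to M15481_g_at, and in walked against control 0.58 ± 0.90, or -0.58 without control pool 3.

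The third, X06107_r_at, varied least. It read 74.0, 74.7 and 76.4 in control, 61.8, 72.8 and 60.2 in unloaded and 61.3 and 56.9 in walked soleus, so every control pool lay above every other array. The differences were small, -0.21 ± 0.18 in unloaded against control (95% interval -0.61 to 0.19) and -0.34 ± 0.20 in walked against control (-0.79 to 0.10, adjusted p = 0.330). Control pool 3 was the highest array for this probe set and the lowest for both others. Igf1 probe sets X06107_i_at and D00698_s_at were too dim to test, at 3.80 to 26.2 and 1.4 to 21.1. With all arrays these probe sets thus gave no common direction for Igf1, and their intervals allow a change of either sign. Without control pool 3, every tested Igf1 probe set lay below 0 in both comparisons with control. Over the fits that each left out an array, X06107_r_at ran from -0.30 to -0.16 in unloaded and -0.40 to -0.29 in walked against control. Between walked and unloaded soleus, M15481_g_at and M15481_at differed in sign in all of those fits.

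Igf2 was measured by 3 tested probe sets. Probe set X17012mRNA_s_at read 284, 284 and 316 in control, 359, 274 and 326 in unloaded and 320.4 and 252 in walked soleus. The 3 groups overlapped, with a fold change of 0.11 (95% interval -0.23 to 0.45) in unloaded against control, -0.16 (-0.54 to 0.22) between walked and unloaded and -0.05 (-0.43 to 0.33) between walked and control. Probe set M17960_g_at gave 0.00 (-0.43 to 0.44), 0.08 (-0.41 to 0.56) and 0.08 (-0.41 to 0.56), with signals between 113 and 173. On the linear scale the intervals of both probe sets lay between 0.688 and 1.48 times in all 3 comparisons.

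The other tested Igf2 probe set, M17960_at, differed. It read 57.5, 44.2 and 33.0 in control, 81.9, 75.6 and 67.2 in unloaded and 81.7 and 67.0 in walked soleus. All 3 control pools lay below the other 5 arrays, a separation that 5.38% of all tested probe sets showed. The fold change was 0.77 ± 0.24 in unloaded against control (1.71 times, 95% interval 1.18 to 2.46 times, adjusted p = 0.0831) and 0.76 ± 0.27 in walked against control (adjusted p = 0.1004), neither called with all arrays. Without control pool 1 the first was 0.97 with an adjusted p of 0.0468, and over all fits that left out 1 array it lay between 0.57 and 0.97 with adjusted p values of 0.0468 to 0.230. Between walked and unloaded soleus the value was -0.01, with an interval of -0.60 to 0.58. The dim probe sets X16703_r_at, E00988mRNA_s_at and X16703_i_at read 5.80 to 30.7, 9.40 to 30.8 and 0.300 to 20.1 and were not tested.

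**Figure D2:**
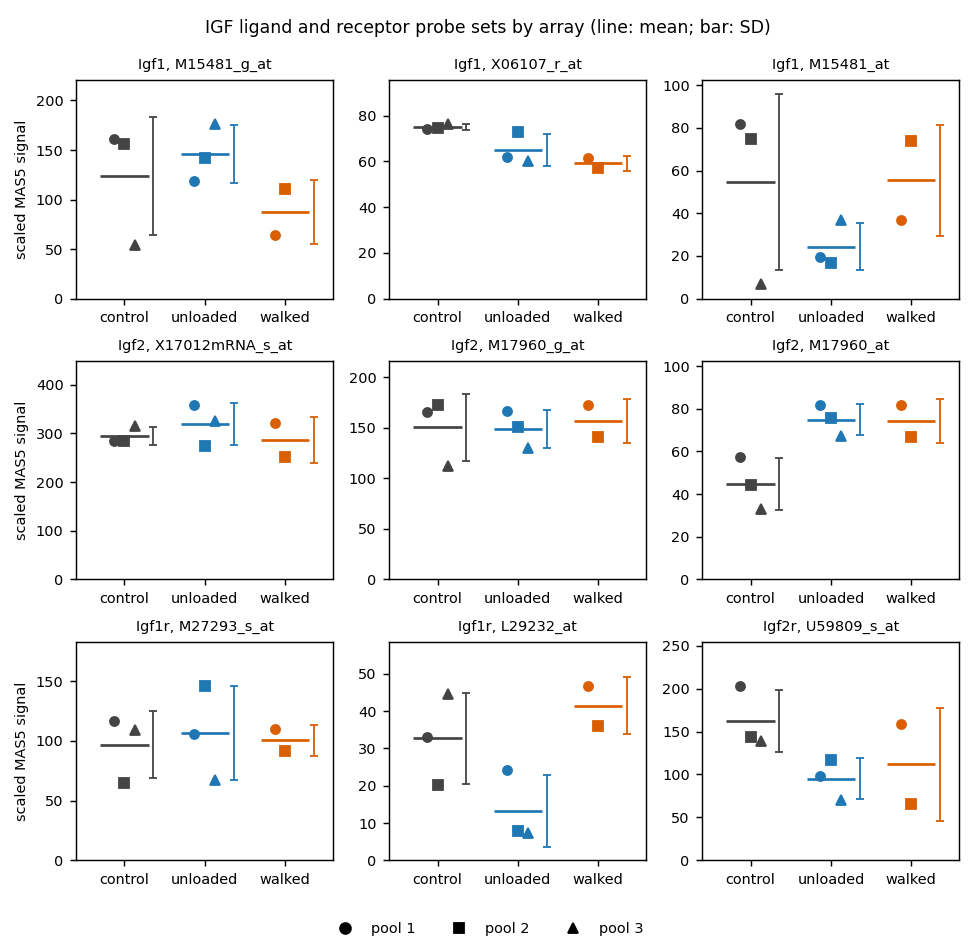
Scaled MAS5 signal (vertical axes, from 0) of the 9 tested ligand and receptor probe sets in each array, by group, with marker shapes for the pool number, a line at the group mean and a bar for the SD. Control pool 3 lies far below the other 2 controls for Igf1 M15481_g_at and M15481_at, and the controls lie below the other 5 arrays for Igf2 M17960_at.

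The receptor genes gave no called change. Igf1r, the signalling receptor, read 116, 64.7 and 109 in control, 106, 146 and 67.7 in unloaded and 109.8 and 91.6 in walked soleus on probe set M27293_s_at. The walked pools lay inside the range of both other groups. Its fold changes were 0.12 (95% interval -0.54 to 0.77), -0.02 (-0.75 to 0.71) and 0.10 (-0.63 to 0.83).

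On the second Igf1r probe set, L29232_at, signals were 33.1, 20.3 and 44.6 in control, 24.3, 7.80 and 7.40 in unloaded and 46.8 and 36.1 in walked soleus. Both walked pools lay above all unloaded pools, whereas unloaded pool 1 fell within the control range. The fold change was -1.47 ± 0.56 in unloaded against control (adjusted p = 0.149) and 1.88 ± 0.62 in walked against unloaded (95% interval 0.50 to 3.25, adjusted p = 0.137). Its mean signal was 27.5 against a filter of 25.77, with 22.9 for the mean without the walked pools and 24.5 without the controls, so it was tested only because it read high in those 2 groups. It fell under the filter without walked pool 1 or control pool 3. Neither change was called, and the 2 probe sets of Igf1r did not show the same order of groups.

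Igf2r, the clearance receptor for IGF-2, had 1 probe set, U59809_s_at. It read 204, 143 and 139 in control, 98.2, 117 and 70.0 in unloaded and 159 and 65.5 in walked soleus. Every control pool lay above every unloaded pool, and the walked pools fell on either side of the unloaded range. The fold change in unloaded against control was -0.78 ± 0.31 (0.583 times, 95% interval 0.361 to 0.940 times), with an unadjusted p of 0.0303 and an adjusted p of 0.175. In walked against control it was -0.65 ± 0.35, or -1.28 without walked pool 1 and -0.01 without walked pool 2, so the value after walking depends on which pool is used.

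Because Igfbp5 and Igfbp6 both had a called fall in walked against control soleus, the 250 bases before their annotated starts are shown, from RefSeq on rat assembly GRCr8, 5′ to 3′ on the gene's strand, with capitals for any of 7 motifs searched on both strands.
Igfbp6 (chr7:135154669-135154918, plus strand): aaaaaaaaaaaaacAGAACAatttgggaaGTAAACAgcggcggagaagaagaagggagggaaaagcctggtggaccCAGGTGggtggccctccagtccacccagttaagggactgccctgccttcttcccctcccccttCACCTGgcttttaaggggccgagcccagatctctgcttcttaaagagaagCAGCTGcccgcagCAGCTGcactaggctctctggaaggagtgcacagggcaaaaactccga
Igfbp5 (chr9:81914188-81914437, minus strand): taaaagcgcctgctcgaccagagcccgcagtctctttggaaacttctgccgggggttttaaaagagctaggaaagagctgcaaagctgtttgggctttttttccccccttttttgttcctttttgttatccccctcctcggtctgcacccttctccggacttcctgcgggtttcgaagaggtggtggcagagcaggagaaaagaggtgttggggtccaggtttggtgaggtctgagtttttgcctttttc
The Igfbp6 stretch held 4 E-boxes (CANNTG, the site of basic helix-loop-helix factors such as the myogenic factors), 1 FOXO motif (GTAAACA) and 1 glucocorticoid half-site (TGTTCT, here on the opposite strand), and none overlapped another. The Igfbp5 stretch held none of these, nor CRE (TGACGTCA), AP-1 (TGANTCA), STAT (TTCNNNGAA) or EGR (GCGTGGGCG). Over all 33469 windows of 300 bases (250 before to 50 after a start), 72.1% held an E-box, 3.78% the FOXO motif, 20.7% the glucocorticoid half-site, 1.83% CRE, 7.33% AP-1, 8.87% STAT and 0.544% EGR. These matches describe letters in the windows. In the same table all 8 genes had a window; that of Igf1r held the EGR motif and that of Igf1 a glucocorticoid half-site.

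Among the binding proteins, Igfbp6 gave the most precise values. On M69055_at the gene whose upstream bases are given above read 864, 709.7 and 981 in control, 562, 591 and 594 in unloaded and 496 and 451 in walked soleus. The 3 groups did not overlap and ran in the order control, unloaded, walked, an order without overlap that 1.87% of all tested probe sets shared. Mean signals were 851 ± 136 (SD, n = 3), 582 ± 18.0 (n = 3) and 473 ± 31.9 (n = 2). Unloaded soleus had 0.690 times the control signal (95% interval 0.557 to 0.854 times) and walked soleus 0.560 times (0.441 to 0.712 times). The step from unloaded to walked was -0.30 ± 0.16 (95% interval -0.64 to 0.045, adjusted p = 0.365) and was not called.

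The fall of Igfbp6 with unloading was called by a narrow margin. It was called in only 1 of 8 fits that left out an array, the one without control pool 2 (-0.66, adjusted p = 0.0226). In the other 7 the fold change lay between -0.55 and -0.43 and the adjusted p between 0.0641 and 0.128. Control pool 3 had the highest signal, and without it the fold change was -0.43. The fall in walked against control soleus kept its call without any 1 control or unloaded pool, and lost it without walked pool 1 (-0.90, adjusted p = 0.0526) or walked pool 2 (-0.77, adjusted p = 0.0953), where a single walked array remains.

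Igfbp5 had 2 tested probe sets. On M62781_at it read 39.6, 51.3 and 58.8 in control, 84.3, 67.0 and 58.1 in unloaded and 13.2 and 25.6 in walked soleus. The walked pools lay below all 6 other arrays, and the unloaded and control pools met at about the same signal (unloaded pool 3 and control pool 3). Mean signals were 49.9 ± 9.70 (SD, n = 3), 69.8 ± 13.3 (n = 3) and 19.4 ± 8.79 (n = 2). Walked soleus had 0.267 times the unloaded signal (95% interval 0.157 to 0.454 times) and 0.374 times the control signal (0.2197 to 0.636 times). Unloaded against control was 0.49 ± 0.31 (95% interval -0.20 to 1.17) and was not called.

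The fall of Igfbp5 in walked against unloaded soleus kept its call without any 1 array except walked pool 1, the dimmest (-1.43, adjusted p = 0.0834). The fall against control was lost without control pool 2 (-1.39, adjusted p = 0.0777), control pool 3 (-1.29, 0.0813) or walked pool 1 (-0.94, 0.184). With no filter on dim probe sets, the adjusted p values were 0.0627 and 0.0988. The other tested probe set, rc_AI029920_s_at, did not follow. It read 37.9, 19.7 and 6.30 in control, 27.7, 32.1 and 25.7 in unloaded and 11.6 and 45.3 in walked soleus, with walked pool 2 the highest array and control pool 3 the lowest. Its fold changes were 0.76 ± 0.70, -0.31 ± 0.78 and 0.45 ± 0.78, with a mean signal (25.78) just above the filter (25.77). Without control pool 3 those against control were 0.056 and -0.25. Probe set rc_AI070577_at read 2.3 to 6.90 and was not tested. With the tested probe sets averaged, Igfbp5 in walked against unloaded soleus was -1.11 ± 0.48 (limma adjusted p = 0.248). In walked against control the average was -0.48 ± 0.48 (adjusted p = 0.591). This average was chosen after seeing the data.

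Igfbp3, the main carrier of IGFs in serum, had 2 tested probe sets with the same order of groups. M31837_at read 44.6, 39.3 and 65.6 in control, 42.1, 71.5 and 74.1 in unloaded and 38.3 and 20.3 in walked soleus. Probe set rc_AI009405_s_at read 18.7, 29.3 and 36.1, then 29.1, 48.3 and 32.0, then 13.7 and 11.6. On both, the walked pools were the 2 lowest of the 8 arrays. The second had a mean signal of 27.3, and of 21.9 without the unloaded pools, so it passed the filter (25.77) only through the unloaded pools, where it read high. In walked against unloaded soleus the fold changes were -1.12 ± 0.38 (95% interval -1.95 to -0.28, adjusted p = 0.146) and -1.49 ± 0.47 (-2.54 to -0.45, adjusted p = 0.121). In walked against control they were -0.80 ± 0.38 and -1.10 ± 0.47 (adjusted p = 0.222 and 0.178). None was called, and the intervals in walked against unloaded soleus excluded 0 only before adjustment over all probe sets. The mean of both, an alternative chosen after seeing the data, gave -1.31 ± 0.39 in walked against unloaded soleus with an adjusted p of 0.0867 over 3154 genes. That mean includes rc_AI009405_s_at, which was tested only because it read high in the unloaded pools, so it supports nothing.

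Both walked pools lay below the other 6 arrays on Igfbp6, on Igfbp5 M62781_at and on both Igfbp3 probe sets, an arrangement that 12.7% of all tested probe sets had. The Igfbp3 probe sets measure 1 gene, and 1 of them is the probe set that passed the filter through the unloaded pools alone.

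**Figure D3:**
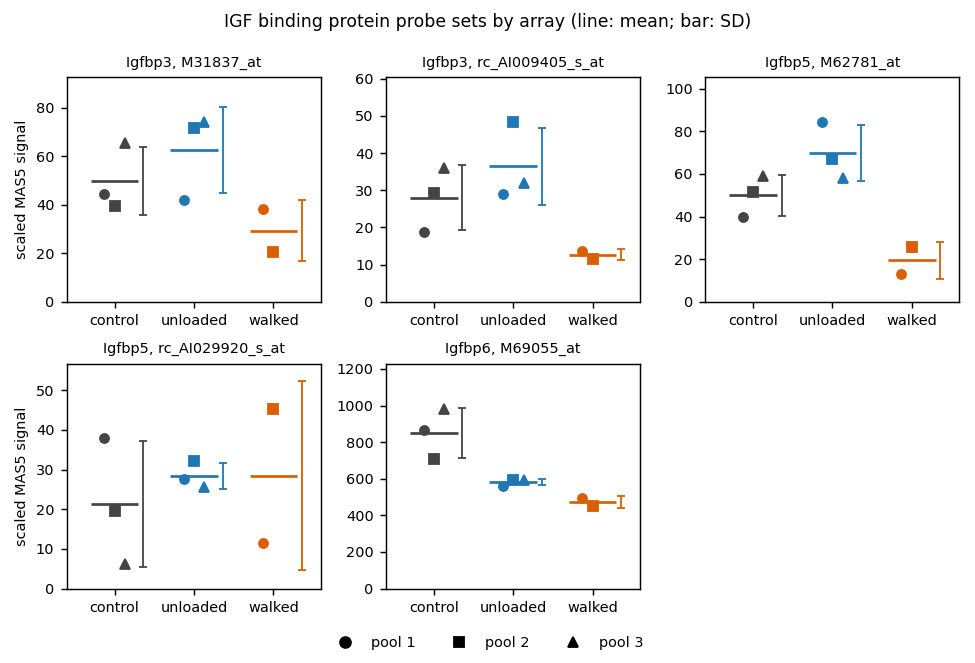
Scaled MAS5 signal (vertical axes, from 0) of the 5 tested binding protein probe sets in each array, by group, with a line at the mean and a bar for the SD. Walked pools are the lowest 2 arrays in 4 of the 5 panels, and Igfbp6 runs from 709.7 or more in control to 496 or less in walked soleus.

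**Figure D4:**
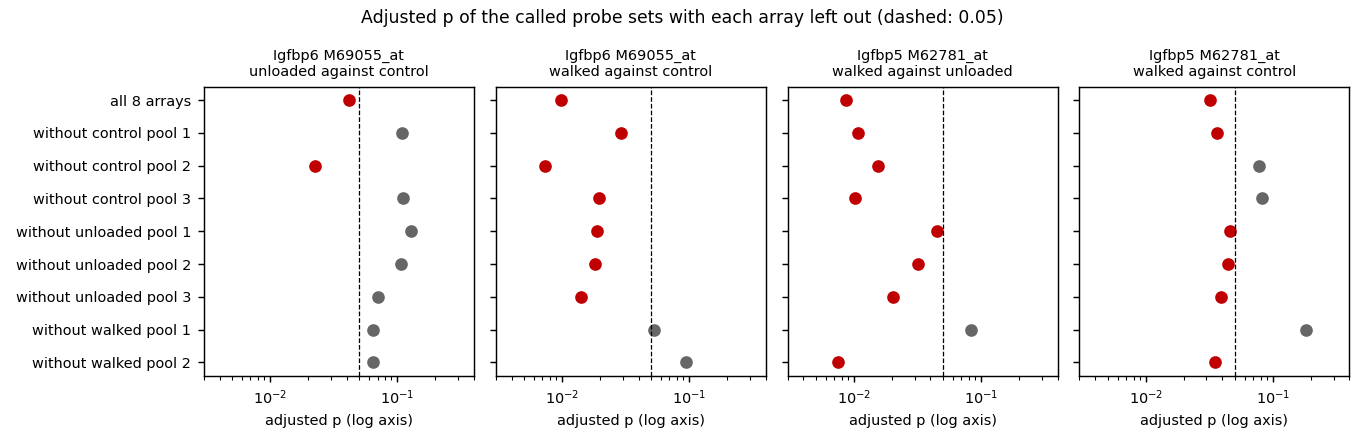
Adjusted p (horizontal log axis) of the 4 called fold changes with all arrays and with each array left out, the dashed line marking 0.05 and red points lying under it. Igfbp6 in unloaded against control is under 0.05 in 1 of 8 such fits, and Igfbp5 in walked against unloaded in 7 of 8.

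Other binding proteins were described from their own probe sets. Igfbp2, which neighbours Igfbp5 in the gene table, read 101, 86.6 and 80.1 in control, 88.2, 107 and 73.8 in unloaded and 104 and 111 in walked soleus on its 1 tested probe set, with 0.00, 0.28 and 0.28 in the 3 comparisons and none called. Igfbp1, the neighbour of Igfbp3 there, read 3.60 to 6.70 and was not tested. Igfals, the subunit that stabilises the serum complex of IGF and Igfbp3, had -0.10, -0.01 and -0.11 on the tested probe set with its highest mean signal and 0.14, -0.04 and 0.10 on S46785_g_at. On rc_AA924289_s_at it read 12.4, 28.2 and 73.5 in control, 107, 51.3 and 93.3 in unloaded and 44.6 and 65.2 in walked soleus, with 1.44 ± 0.54 (adjusted p = 0.143), -0.57 ± 0.60 and 0.87 ± 0.60, none called.

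The other genes of the pathway were taken from 5 lists of 86 genes, of which 56 had a probe set and 48 were tested, each by its probe set with the highest mean log2 signal. In unloaded against control soleus 1 of 48 rose and 0 fell, beside 3.71% and 2.5% of all 3154 genes. In walked against unloaded soleus 0 rose and 1 fell (2.35% and 1.74% of all genes), and in walked against control 1 rose and 2 fell (3.74% and 4.63%). At an unadjusted p under 0.05, limma gave 8 of the 48 in each comparison, beside 19.7%, 16.9% and 23.1% of all genes. The median fold changes of the 48 were -0.11, -0.07 and -0.20, beside -0.08, -0.05 and -0.11 for all genes.

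The rise was in Eif4e, the cap-binding translation factor held in check by Eif4ebp1. Its signal was 50.1, 54.9 and 64.8 in control, 169, 148 and 147 in unloaded and 150.3 and 148 in walked soleus. All 5 arrays of unloaded or walked soleus lay above all controls, with 1.46 ± 0.17 in unloaded against control (adjusted p = 0.000388), 1.41 ± 0.19 in walked against control (adjusted p = 0.00138) and -0.05 ± 0.19 between walked and unloaded (95% interval -0.46 to 0.36). Eif4ebp1 itself was 0.10, -0.34 and -0.25 on its brightest probe set and not called there; another of its 3 probe sets was called higher in both comparisons with control (0.91 and 0.85).

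The falls were in Vtn and Araf. Vtn encodes vitronectin, an adhesive glycoprotein of plasma and matrix that can bind Igfbp5. It read 117, 145 and 141 in control, 127, 116 and 156 in unloaded and 85.3 and 52.4 in walked soleus, so both walked pools were below all other arrays (-0.98 ± 0.24 against unloaded, adjusted p = 0.0421; -1.0 ± 0.24 against control, adjusted p = 0.0280). The call against unloaded was kept in 2 of 8 fits that left out an array, those without control pool 3 or walked pool 1, and in 5 of 10 other alternatives. The call against control was kept in 5 of 8, lost without control pool 2, control pool 3 or walked pool 2, and kept in 7 of 10 other alternatives. Araf, a kinase of the Raf family, read 176, 192 and 198 in control, 180.3, 173 and 152 in unloaded and 119 and 125 in walked soleus, with -0.63 ± 0.16 in walked against control (adjusted p = 0.0361). That call was lost without any 1 control or walked pool, and so was kept in 3 of 8 such fits, and in 7 of 10 other alternatives. Eif4e kept both calls in all 8 and all 10.

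By list, the 6 tested carriers and proteases had 0 called by limma in unloaded against control (0 at an unadjusted p under 0.05) and 1 fall, Vtn, in each comparison of walked soleus. Of 10 growth hormone axis genes limma called 0 in the 3 comparisons (0, 2 and 1 at an unadjusted p under 0.05). The cytokine-signalling inhibitor Socs3 had 1.87 ± 0.51 in walked against unloaded (adjusted p = 0.0708, from a mean of 17.6 to 61.2). Of 12 genes next to the receptor limma called 0 (2 in each comparison at an unadjusted p under 0.05). The insulin receptor Insr had -0.28, 0.35 and 0.07, the adaptor Irs1 -0.58, 0.18 and -0.39, and the adaptor Grb2 0.05, -0.61 (adjusted p = 0.0664) and -0.56 (adjusted p = 0.0542). Irs2 was not called on its brightest probe set (0.58 in walked against unloaded) but 1 of its 3 probe sets was (3.64, and 2.66 against control). Of 16 genes of the PI3 kinase and Akt arm 1 rose, Eif4e, in both comparisons with control; Akt1 had -0.26, -0.01 and -0.26, the kinase Mtor 0.16, -0.22 and -0.06, and the transcription factor Foxo1 -0.15, -0.37 and -0.52. Other probe sets in this arm were called for the ribosomal protein Rps6 (1.57 in unloaded and 1.18 in walked, each against control) and the kinase Akt2 (-0.74 in walked against control). Of 4 genes of the Ras and MAP kinase arm 1 fell, Araf, in walked against control. Another probe set of the kinase Map2k2 was called lower in both comparisons with control (-0.59 and -0.66).

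**Figure D5:**
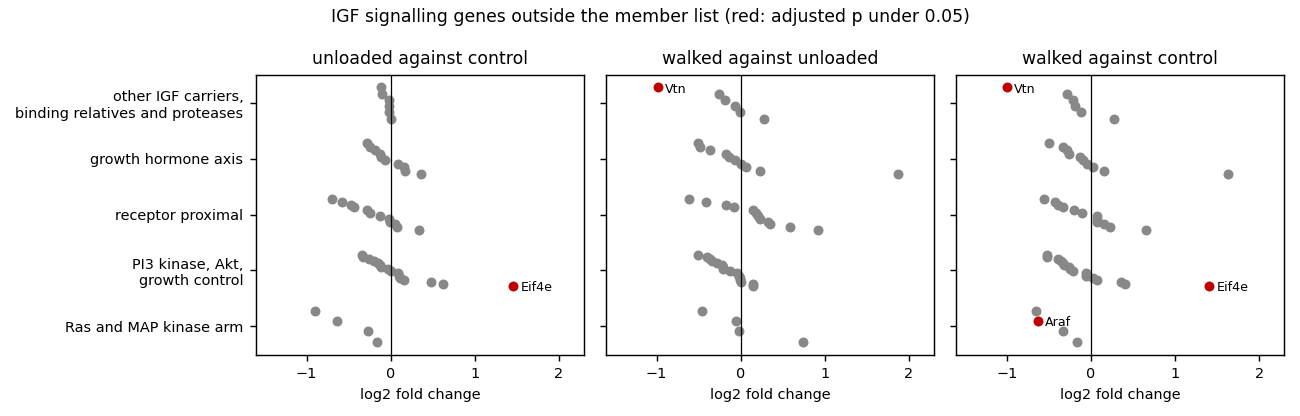
Log2 fold change (horizontal axis) of the 48 tested IGF signalling genes outside the 8 members, 1 point per gene in its list, in the 3 comparisons, with red and a name where the adjusted p was under 0.05. Named points are Eif4e above 0 in both comparisons with control, Vtn below 0 in both comparisons of walked soleus, and Araf below 0 in walked against control.

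The genes most like the called members over the 8 arrays were found by the root mean square difference of log2 values, each probe set centred on its own mean. For Igfbp6 they were the laminin receptor chain Itga7 (0.110), the inositol trisphosphate receptor Itpr3 (0.112) and the mitochondrial outer membrane protein Tspo (0.121), beside a median of 0.430 over all tested probe sets. For Igfbp5 M62781_at they were the guanylate cyclase subunit Gucy1a1 (0.313), the mannosidase Man1a1 (0.3496) and Kbtbd12 (0.354), beside a median of 0.855. These genes were picked for likeness over the same 8 arrays, so their fold changes were bound to resemble those of the members and test nothing. Gucy1a1 had 0.59, -2.21 and -1.62 in the 3 comparisons, called only in walked against unloaded. Itga7 had -0.54, -0.18 and -0.72, called in both comparisons with control. Itpr3 and Tspo were called only in walked against control (-0.63 and -0.68). Man1a1 was called in both comparisons of walked soleus (-1.37 against unloaded and -1.18 against control), and Kbtbd12 in none.

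Markers of other cells in whole muscle were read beside these values. Over all 3154 genes, 3.71% were called higher and 2.5% lower in unloaded against control. The shares were 2.35% and 1.74% in walked against unloaded, and 3.74% and 4.63% in walked against control. These shares stand beside every marker count below. Of 11 measured fibroblast and matrix markers, 2 rose in unloaded against control (Dcn 1.83, Lum 0.82), limma called 0 of 11 between walked and unloaded (2 at an unadjusted p under 0.05), and against control after walking 1 rose (Dcn 1.51) and 2 fell (Col1a2 -1.03, Thy1 -1.11). The median fold change of the 11 was -0.11, -0.31 and -0.12 in the 3 comparisons, beside -0.08, -0.05 and -0.11 for all genes. Their summed signal was 10707 to 14504 in control, 11508 to 18729 in unloaded and 12797 to 13888 in walked soleus. Of 5 smooth muscle markers 2 fell in unloaded against control (Tagln -0.96, Myl9 -1.18) and 1 in walked against control (Myl9 -1.42), with summed signals of 2144 to 2797 in control, 1424 to 1544 in unloaded and 1628 to 1971 in walked soleus. The smooth muscle sum was therefore lower than control, without overlap, in both other groups. It was lowest in unloaded soleus. Its largest member was Acta2 (mean signal 1485 in control), uncalled on the probe set summed. The smooth muscle genes did not all move one way, and Cnn1 was 0.68 in walked against control, uncalled. Any part of these cells in the values of Igfbp6 was not tested. The Schwann and nerve sum (6 genes, 3 under the filter) was also lower than control in both groups. It was 464 to 520 in control, 407 to 460 in unloaded and 443 to 451 in walked soleus, and most of it was Pmp22. In unloaded against control Pmp22 was -0.35 and Mbp -0.23, whereas Prx was 0.66, all uncalled. In walked against unloaded Prx fell (-1.23), whereas Pmp22 was 0.23 and Mbp 0.41, uncalled. Summed leukocyte markers (10 genes, 3 under the filter) were 1370.4 to 1395 in control, 1366 to 1560.2 in unloaded and 1084 to 1178 in walked soleus, so the walked pools were lowest in this sum. The genes behind it did not all move one way. In walked against control Cd74 (-0.65) and RT1-Da (-0.58) fell, while Cd48 was 0.92 and Cd14 0.21, uncalled. RT1-Da also fell against unloaded (-0.85), and Cd48 rose in unloaded against control (1.4).

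The satellite cell sum (4 genes, 1 of them under the filter) was 1379.7 to 1733 in control, 901 to 1184 in unloaded and 3045 to 3856 in walked soleus, and nearly all of it was Sdc4, a syndecan, at 2948 and 3717 in the walked pools. Sdc4 rose against unloaded (1.87) and control (1.30); Ncam1 was -0.45 and -0.71 and Met 0.01 and 0.23 there, uncalled. Summed fast fibre markers (9 genes) were 10609 to 13356 in control, 13671 to 15786 in unloaded and 10242 to 11156 in walked soleus. The sum was highest in unloaded soleus, as were the group means of Igfbp3 M31837_at and Igfbp5 M62781_at. Of these 9, Myh2 (-0.64) and Tnni2 (-0.83) fell in walked against unloaded and Casq1 (-0.48) in walked against control. The genes did not all follow the sum. Myh1 alone was above 0 in walked against unloaded (0.49, uncalled). In walked against control Myh1 was 0.51 and Atp2a1 0.49, uncalled, and the mean of Casq1 was highest in control. Of 7 slow fibre markers, Tnni1 (0.58), Myl2 (0.60) and Myl3 (0.58) rose in walked against control, and Tpm3 fell in unloaded against control (-0.95). The slow fibre sum was 21182 to 23294 in control, 22788 to 30704 in unloaded and 28765 to 31549 in walked soleus. Of 4 tested adipocyte markers, Fabp4 rose in unloaded against control (1.52), while Lep was -0.28, Cfd -0.43 and Lipe 0.27, uncalled. The adipocyte sum (5 genes, 1 under the filter) overlapped between groups. It was 1422 to 1777 in control, 1459 to 1728 in unloaded and 1367 to 1799 in walked soleus. The red cell sum (4 genes) was 6175 to 7402 in control, 5851 to 8266 in unloaded and 4376 to 6106 in walked soleus. The walked pools thus lay below all controls in this sum, with no red cell marker called. Slc4a1 went the other way there (0.54, uncalled). The endothelial sum (6 genes, 2 under the filter) was 417 to 482 in control, 365 to 426 in unloaded and 389 to 447 in walked soleus, with none called. No marker of any list was at or under the floor in all arrays. The part of these cell types in the values of the binding proteins was not tested.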

How the data were processed

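RNA of pooled rat soleus was hybridised as biotin-labelled cRNA to 8 one-colour arrays, per the labels' protocols. The deposited values are MAS5 signal intensity on a linear scale, 1 per probe set, per the submitters' processing notes, which state neither version nor scaling target. The trimmed mean (2% left out at each end) of the deposited intensity lay between 148.4 and 148.8 on every array. Arrays were scaled to 148.6, values under the 10th percentile (4.10) set to that floor, and log2 taken. Probe sets with mean signal under the 40th percentile (25.77) were left out, and 5244 of 8740 were tested with limma 3.58.1 in R 4.3.3 (lmFit, contrasts.fit, eBayes with a trend, two-sided, 3 groups, 5 residual degrees of freedom), adjusted by Benjamini-Hochberg and called under an adjusted p of 0.05. Intervals are the fit's 95% confidence intervals. The fit was tested on simulated data. The number of arrays limits the precision, and the smallest exact permutation p for 3 against 3 or 3 against 2 pools is 0.1.

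Symbols came from the platform annotation: 7006 probe sets had 1 symbol, 308 several and 1426 none. The gene table (GRCr8) held 6985 of the 7006, and 0 symbols changed. Members, lists and tests were chosen with earlier results of these data known. Named genes are all members, every called gene of the pathway lists (up to 6 per list and comparison), and the 3 genes most like each called member; the uncalled pathway genes and the markers named beside them were chosen after their values were seen. Motifs were searched as exact letters on both strands. Alternatives were no rescaling, quantile normalization, other floors and filters, no trend, 2 groups only, a replicate block and each array left out. The median array signal was 37.1 to 42.4.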

Additional observations from a re-analysis of the deposited data

How the results depend on the processing

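Counts of called IGF system probe sets were 1 between unloaded and control, 1 between walked and unloaded and 2 between walked and control, the order kept in what follows. Without a filter they were 0, 0 and 1. With the filter at the 60th percentile, which left Igfbp5 M62781_at untested, the second was 0 and the third 1. Without the mean-variance trend, or with the 2 groups alone, the first was 0 and the third 1. Leaving out each array gave 0 to 1, 0 to 1 and 0 to 2. The probe set called in the first comparison was not the same in each of these fits. It was Igf2 M17960_at without control pool 1, Igfbp6 M69055_at without control pool 2 and Igf1 M15481_at without control pool 3. Signalling genes called were 1, 1 and 3: 2, 2 and 5 at the 60th percentile filter, 3, 2 and 6 with the mean over a gene's probe sets, 1 in the third without the trend, and 0 in the second with no filter, the 2 groups alone or quantile normalization. Each array left out gave 1 to 2, 0 to 2 and 1 to 3. Over all probe sets, 383, 220 and 476 were called. No filter gave 228 in the first and 216 in the third, no trend 243 and 211, and each array left out 230 to 404, 120 to 263 and 105 to 503. The causes were not tested.

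The labels number the pools in each group, but same-numbered pools did not deviate together (7 pairs, r -0.0669 to 0.052, against -0.0682 to 0.111 for 14 other pairs), so the numbers were not taken as pairs. With a replicate block, signalling genes called were 2, 0 and 1, and in walked against control 1 IGF system probe set and 251 probe sets in all were called. There Igfbp5 M62781_at was -1.42 (adjusted p = 0.0689), and Igf2 M17960_g_at reversed to -0.067 in walked against control and -0.071 in walked against unloaded, and Igf2r to -0.019 in walked against unloaded.

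Other changes of sign were in uncalled members. The mean over a gene's tested probe sets, which is not a value of any 1 of them, had the opposite sign to its probe set with the highest mean for Igf1 (-0.15 and 0.10 in the first and second comparisons, beside M15481_g_at), Igf1r (-0.68 and 0.93, beside M27293_s_at) and Igf2 (0.26 in the third, beside X17012mRNA_s_at). Quantile normalization gave 0.021 for Igf2 M17960_at in the second and 0.0056 for X17012mRNA_s_at in the third. With each array left out, Igf1 M15481_g_at ran from -0.14 to 0.64 in the first comparison and M15481_at from -0.58 to 1.19 in the third. Igf2 M17960_g_at ran from -0.19 to 0.12, -0.067 to 0.22 and -0.12 to 0.22, M17960_at from -0.16 to 0.13 in the second, and X17012mRNA_s_at from -0.33 to 0.013 and -0.22 to 0.12 in the second and the third. Igf1r M27293_s_at ran from -0.15 to 0.41, -0.31 to 0.24 and -0.17 to 0.25, and Igf2r from -0.50 to 0.77 in the second. Igfbp5 rc_AI029920_s_at passed the filter in only some of these fits, and not in the one without control pool 1. Where it passed, it ran from -0.31 to 0.67 and -0.25 to 1.44 in the second and the third. Signals near the floor of 4.10 limit what dim probe sets can show, and a group of 2 walked pools left with 1 array was assumed to vary like the others.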
